A study of Mus musculus with 8 samples.

Results

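The genes described here encode the 3 nuclear families that build the protein-making and transport equipment of mitochondria: the proteins of the mitochondrial ribosome (*Mrpl* and *Mrps*), the translocases that import proteins (*Tomm* and *Timm*) and the carriers of the inner membrane (*Slc25*). They were chosen by symbol alone, as the protein-coding genes of the deposited table whose names begin with *Mrpl* or *Mrps* and a digit, with *Timm* or *Tomm*, or with *Slc25a* and a digit. The rule found 92 of the 8278 listed genes, which were 33 genes of the large subunit, 20 of the small subunit, 8 *Tomm* genes, 10 *Timm* genes and 21 carriers. Bulk RNA-Seq libraries came from MCECs, a mouse endothelial cell line of cardiac origin, with 4 samples per group. The EV group (genotype CTL) had been transduced with a lentivirus holding the empty vector, and the *Hdac3* KO group with a lentivirus holding an *Hdac3* sgRNA for Crispr/cas9 knockout. Nothing in the sources used here gives the age or strain of the line's donor. Nor do they say whether the *Hdac3* KO cells were a clone or a pool. No label gives separate cultures, and the paper's reporting summary describes technical replicates as typical for its in vitro studies. The p-values therefore measure only the spread between these samples.

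Most mitochondrial proteins are made in the cytosol from nuclear genes, recognised by the TOM complex of the outer membrane and passed through the TIM complexes of the inner membrane. The mitochondrial ribosome, itself assembled from imported proteins, translates the few proteins encoded by the mitochondrial genome, which are parts of the respiratory chain and of ATP synthase. The carriers move nucleotides, phosphate, amino acids, carboxylates, iron and cofactors across the inner membrane.

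The deposited table lists only genes with an adjusted p of the authors under 0.05. Each member had therefore already been selected for a difference between these groups. Unless another share is given, counts of called genes below are to be read against all 8278 listed genes, of which 47.1% were called higher and 49.6% lower. Of the genes annotated in these families, 33 of 49 large subunit genes, 20 of 29 small subunit genes, 19 of 26 import genes and 21 of 47 carriers were in the table; the others were not analysed here. The import count includes *Timm29*, which the table names 1810026J23Rik and which the rule therefore missed (log2 fold change 0.10, adjusted p = 0.013). Library totals ranged from 15775327 to 21262575 reads in EV MCECs and from 19356714 to 22255684 in *Hdac3* KO MCECs. The targeted gene, *Hdac3*, had normalised read counts of 1943, 2077, 2064 and 2147 in the 4 EV libraries and 1558, 1465, 1496 and 1531 in the 4 *Hdac3* KO libraries, a log2 fold change of -0.45 (adjusted p = 1.04e-13). Of 15 endothelial markers, 7 were in the table, 6 lower (log2 fold changes -1.41 for *Tek*, -1.20 for *Kdr*, -0.47 for *Egfl7* and -0.16 to -0.30 for *Eng*, *Flt1* and *Cd34*) and 1 higher, *Pecam1*, at 0.518 ± 0.611 (SD, n = 4) in EV and 3.99 ± 2.95 in *Hdac3* KO MCECs. *Cd34*, at 4645 ± 54.4 and 3783 ± 59.3, made up most of their sum, which was 6493 to 6724 in EV and 5385 to 5579 in *Hdac3* KO MCECs. *Cdh5*, *Tie1*, *Vwf* and *Cldn5* were among the 8 not in the table. Of 9 fibroblast markers, 5 were in the table (sums 130127 to 137065 and 119171 to 122587), 4 lower (log2 fold changes -1.42 for *Pdgfra*, -1.21 for *Dcn*, -0.26 for *Col3a1* and -0.13 for *Thy1*) and 1 higher, *Col1a1* (0.23). The collagens made up most of these sums, with *Col3a1* at 77632 ± 1334 in EV MCECs. The sums were 1305 to 1535 and 319 to 389 for 4 of 8 mural markers and 124 to 137 and 279 to 314 for 1 of 6 immune markers, *Cd68*, and none of 9 cardiomyocyte markers was listed. Among the mural markers *Des* rose (log2 fold change 1.62) while *Pdgfrb*, *Acta2* and *Tagln* fell. These marker levels moved with the groups, and their part in the results below was not tested. In bulk samples, fewer cells of a type and less RNA per cell cannot be told apart.

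Promoter sequences were available for 80 of the 92 members, as RefSeq windows of 300 bases (GRCm38.p6, 250 before and 50 after a start; 88 windows, since some genes have several starts). Letters of 7 motifs were searched on both strands. The NRF1 letters CGCANGCGC were present in 13 of 48 ribosome windows (27.1%), 3 of 18 import windows (16.7%) and 1 of 22 carrier windows (4.55%), against 12.8% of the windows of all listed genes and 6.31% of all promoters. The YY1 letters AAGATGGC were present in 20.8% of ribosome, 5.56% of import and 4.55% of carrier windows, against 4.68% of listed genes and 2.75% of all promoters. The ETS letters CCGGAAGT, which the GABP factor binds, were present in 14.6%, 16.7% and 0% of them, against 7.73% and 3.89%. Of the other letters, the E-box CACGTG was present in 14.6% of ribosome, 22.2% of import and 18.2% of carrier windows (10.2% of listed genes, 7.15% of all promoters). The GC box GGGCGG was present in 52.1%, 50% and 86.4% (63.9% and 35.7%), and the CRE TGACGTCA in 4.17%, 0% and 4.55% (3.11% and 1.79%). The CARE letters TGATGNAA were present in no member window (2.21% and 3.97%). The windows were rich in G and C, with a median of 58% in ribosome, 58.3% in import and 63.3% in carrier windows, 61.3% in listed genes and 52.7% in all promoters. Matches of the NRF1, ETS and YY1 letters shared no base with each other in any of the 88 windows, and overlaps with the other letters were not searched. A match describes the letters and not a bound site, and the shares were not tested. Windows of 30 bases are shown for members with high and with low log2 fold changes, read 5′ to 3′ on the gene's strand. Capitals mark 1 match per window, on either strand. In *Mrpl9* and *Mrpl39* a further match of the NRF1 letters is shifted by 1 base, and its extra letter is in lower case. The first 8 windows hold the NRF1 letters, the next 3 the ETS letters and the last 2 the YY1 letters.
Mrpl9, chr3:94443299-94443328, plus strand: ggcgcagctgCGCATGCGCggggtccttct
Mrpl22, chr11:58171621-58171650, plus strand: gcctcggactGCGCATGCGtatagtcagcc
Mrpl39, chr16:84735350-84735379, minus strand: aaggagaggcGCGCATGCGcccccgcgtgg
Mrpl45, chr11:97315669-97315698, plus strand: ggtttcattgCGCACGCGCgaacccactgc
Mrps18b, chr17:35916645-35916674, minus strand: aacggcccgaCGCATGCGCactgggagcac
Mrps7, chr11:115604104-115604133, plus strand: cgctcactcaCGCAGGCGCgctgtgggcag
Mrps21, chr3:95871586-95871615, minus strand: ggaaagtccaGCGCCTGCGctcagcaccga
Tomm20, chr8:126945922-126945951, minus strand: gggtccatctGCGCGTGCGcaccaggcgtt
Timm23, chr14:32201921-32201950, minus strand: tcgcgcttcccACTTCCGGgccgcacacag
Tomm70a, chr16:57121623-57121652, plus strand: gccttctgaccCCGGAAGTggttctcccct
Mrps27, chr13:99344726-99344755, plus strand: gtggtaggaccACTTCCGGcggaggcgggc
Mrps11, chr7:78783013-78783042, plus strand: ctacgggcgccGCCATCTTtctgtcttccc
Mrpl36, chr13:73330968-73330997, plus strand: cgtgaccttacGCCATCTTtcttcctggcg
Among these 13 genes, 11 were higher and *Mrps21* and *Mrpl36* were lower in *Hdac3* KO MCECs. *Mrpl9*, *Mrpl22*, *Mrpl39* and *Mrps18b* carry the same core, CGCATGCGC, which reads as GCGCATGCG on the other strand. Matching letters stood in 21.7% of the windows of members called higher for NRF1, 14.5% for ETS and 15.9% for YY1, and in 6.67%, 0% and 6.67% of the 15 windows of members called lower. Of the 16 members called lower 7 were carriers, whose windows seldom held these letters, so call and family were not separated here. The windows of all listed genes were not split by call.

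The first question was whether the 3 families differed between *Hdac3* KO and EV MCECs. Of the 92 members, 72 were higher in *Hdac3* KO MCECs, 16 were lower and 4 did not pass the adjusted p cut-off of 0.01 of edgeR's quasi-likelihood test. Over all 8278 listed genes, 47.1% were called higher and 49.6% lower. In the mitochondrial ribosome, 47 of 53 genes were higher and 6 lower. Of the 18 import genes, 12 were higher and 3 lower, and of the 21 carriers, 13 were higher and 7 lower. The median log2 fold change was 0.27 for the ribosome, 0.36 for import and 0.23 for carriers, against 0.06 for all listed genes. Every *Hdac3* KO library lay above every EV library in 46 ribosome genes, 11 import genes and 12 carriers, which compares with 44.4% of all listed genes. Every *Hdac3* KO library lay below in 4, 3 and 7 genes, against 46.6% of all listed genes. The changes were small: 77 of the 92 members changed by less than 0.5 on the log2 scale, and 2, *Slc25a45* and *Timm8a1*, by 1 or more. Of all 8278 listed genes, 5092 changed by less than 0.5 and 1059 by 1 or more.

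**Figure D1:**
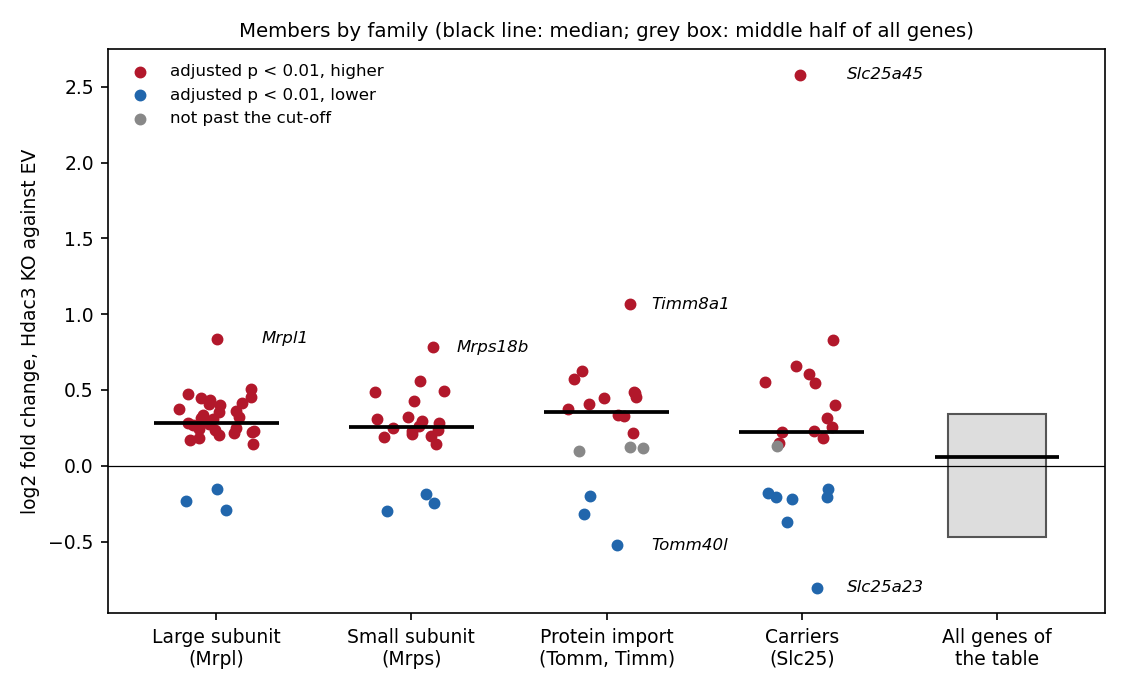
Log2 fold change of each member in *Hdac3* KO against EV MCECs (vertical axis), by family (horizontal axis), with points coloured by call, a black line at each family's median and a grey box over the middle 50% of all 8278 listed genes. Most ribosome genes sit in a narrow band above 0, while the carriers spread from -0.80 for *Slc25a23* to 2.58 for *Slc25a45*.

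The size of these differences depended on how the libraries were scaled. Scaling by TMM factors assumes that most listed genes do not change, and scaling by library totals alone moved the median of all listed genes by -0.12. Under library totals, 32 ribosome genes, 11 import genes and 10 carriers were called higher, and 6, 3 and 7 lower. Over all listed genes, 2671 (32.3%) were then called higher and 4120 (49.8%) lower, and under offsets for GC content and length 3517 (42.5%) and 3730 (45.1%). All 72 members called higher and all 16 called lower kept their sign under offsets for GC content and length. They did so under library totals as well, where no other outcome was possible. The shift of -0.12 is smaller than the lowest estimate of a member called higher (0.14), and it moves the lower members further down. Library totals move every gene by nearly the same amount, so family medians relative to the median of all listed genes (0.22 for the ribosome, 0.30 for import and 0.17 for carriers) cannot differ between these scalings. Under the offsets they were 0.27, 0.35 and 0.13. Of the 88 called members, 39 had an estimate more than 1.5 times smaller under library totals and 21 under the offsets, while 9 and 3 were more than 1.5 times larger.

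Summed over its genes, the large subunit had normalised read counts of 32159 ± 542 (SD, n = 4) in EV and 39054 ± 652 in *Hdac3* KO MCECs, a ratio of 1.21. The small subunit had 14813 ± 234 and 17481 ± 182, a ratio of 1.18. The import genes had 23248 ± 110.1 and 30423 ± 516, a ratio of 1.31. The largest parts of these sums were *Tomm20* (means 5051 and 7094) and *Tomm70a* (3137 and 4831). The carriers had 37013 ± 446 and 40942 ± 615, a ratio of 1.11. *Slc25a4*, *Slc25a3* and *Slc25a5*, with means of 10836, 8100 and 6287 in EV MCECs, made up most of the carrier sum. The sums and their ratios therefore weigh the abundant genes most. As shares of all reads, without TMM, ribosome genes took 0.25% ± 0.0045 in EV and 0.277% ± 0.0041 in *Hdac3* KO MCECs, and import genes 0.124% ± 0.00087 and 0.149% ± 0.0024. The groups did not overlap in either family. Carriers took 0.197% ± 0.0027 and 0.201% ± 0.0028 of reads, and there the libraries overlapped. Ratios within a library do not depend on TMM factors or library totals, though offsets for GC content and length differ between genes. The log2 ratio of summed import to ribosome counts was -1.01 ± 0.019 in EV and -0.89 ± 0.019 in *Hdac3* KO MCECs, the groups not overlapping. The log2 ratio of carriers to ribosome moved the other way, from -0.34 ± 0.016 to -0.47 ± 0.012, again with no overlap.

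**Figure D2:**
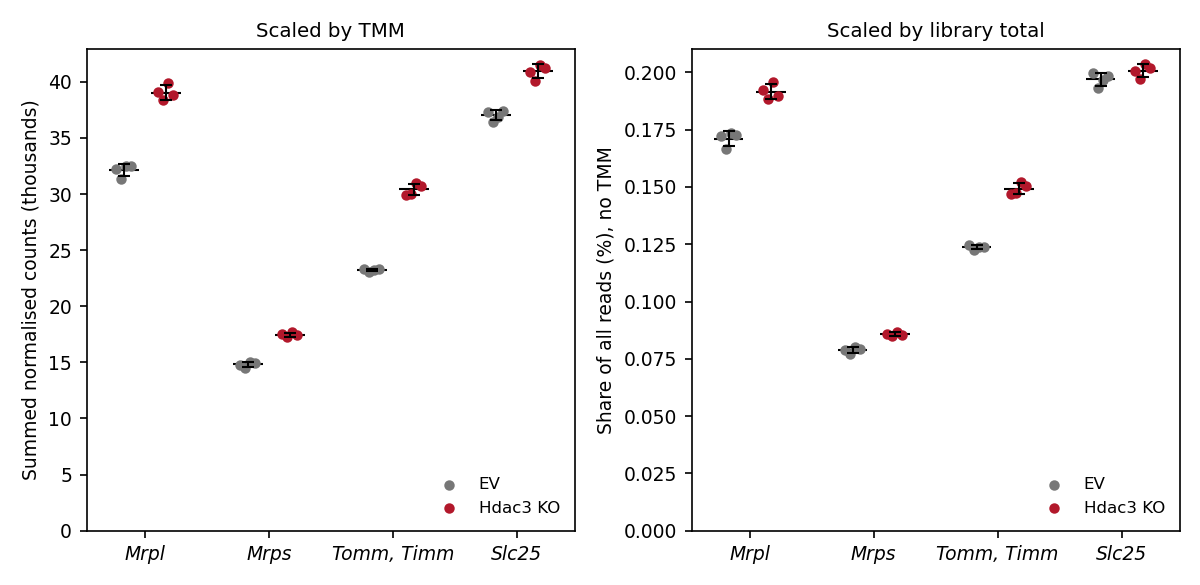
Summed level of each family in each library (points; EV grey, *Hdac3* KO red; black marks are the mean ± SD, n = 4), as normalised read counts divided by 1000 (left) and as a percent of all reads without TMM (right). The carriers differed between groups on the left (37013 and 40942) and overlapped on the right.

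In the large subunit, 30 of 33 genes were higher, by 0.14 to 0.84 on the log2 scale, and 3 were lower. Under library totals 22 were called higher and 3 lower. The shares over all listed genes were 47.1% higher and 49.6% lower, and 32.3% and 49.8% under library totals. The highest of the subunit was *Mrpl1*, a protein of the stalk beside the site where spent tRNA leaves (chr5:96209493-96266727 in mm10, plus strand). Its normalised read counts were 530.5, 481, 456 and 516 in the EV libraries and 807, 859, 969.8 and 905 in the *Hdac3* KO libraries. All 4 *Hdac3* KO libraries lay above all EV libraries (log2 fold change 0.84, SE 0.056, adjusted p = 1.31e-15). *Mrpl35* had 598, 645, 639 and 649 in EV and 868, 942, 914 and 884 in *Hdac3* KO MCECs, also without overlap (log2 fold change 0.51, SE 0.046, adjusted p = 3.58e-12). *Mrpl22*, which lines the tunnel through which the new chain leaves, had 519.8, 429, 488 and 465 in EV and 639, 659, 690.2 and 647 in *Hdac3* KO MCECs (log2 fold change 0.47, SE 0.056, adjusted p = 1.75e-09). *Mrpl45*, which lies at the mouth of that tunnel and contacts the inner membrane, had 1387, 1372, 1309 and 1343 in EV and 1929, 1786, 1906 and 1794 in *Hdac3* KO MCECs (log2 fold change 0.45, SE 0.036, adjusted p = 1.25e-13). The groups were separate in both genes. *Mrpl39*, *Mrpl21*, *Mrpl12*, *Mrpl47* and *Mrpl9* followed with log2 fold changes of 0.45, 0.44, 0.42, 0.41 and 0.40; *Mrpl12* belongs to the stalk that recruits translation factors. *Mrpl44* passed the cut-off (0.31, adjusted p = 0.000215), but its libraries overlapped and its call was lost under library totals (0.20, adjusted p = 0.0144).

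The 3 lower genes of the large subunit were *Mrpl23*, *Mrpl36* and *Mrpl34*. *Mrpl23*, another protein of the tunnel exit, had 455, 463, 419 and 388 in EV and 325, 359, 368 and 348 in *Hdac3* KO MCECs, the groups not overlapping (log2 fold change -0.29, SE 0.066, adjusted p = 0.000125). One annotated pseudogene carries its name, so reads could be shared. *Mrpl36*, a small protein, had 813, 777, 839 and 768 in EV and 684, 642, 741 and 652 in *Hdac3* KO MCECs, again without overlap (log2 fold change -0.23, SE 0.050, adjusted p = 6.22e-05). *Mrpl34* had a log2 fold change of -0.15 (adjusted p = 0.00202), its libraries overlapped, and its call was lost without *Hdac3* KO library 2 (-0.12). Across the 33 genes of the large subunit, the log2 fold change had a Pearson r of -0.49 with the log2 FPKM in EV MCECs, -0.48 with GC content and 0.49 with the logarithm of length. These are descriptions across genes of the same libraries, and all listed genes gave 0.07, -0.06 and -0.07. In the same order, r was -0.23, -0.28 and 0.05 in the small subunit, 0.26, -0.44 and -0.11 in import genes, and -0.57, 0.03 and -0.05 in carriers. The EV counts enter both the log2 fold change and the FPKM, so these measures are not independent. The carriers include *Slc25a45* (0.676 FPKM, log2 fold change 2.58) and *Slc25a47* (0.563 FPKM, 0.83), both at low counts. *Mrpl28*, the most abundant of the large subunit by FPKM in EV MCECs (97.2), had a log2 fold change of 0.20. Its call was lost under library totals (0.08, adjusted p = 0.0178).

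In the small subunit, 17 of 20 genes were higher, by 0.15 to 0.78, and 3 were lower. Under library totals 10 were called higher and 3 lower. Of all listed genes, 47.1% were called higher and 49.6% lower, and 32.3% and 49.8% under library totals. *Mrps18b* had normalised read counts of 389, 454, 399 and 396 in EV and 688, 712, 747 and 668 in *Hdac3* KO MCECs. Even the highest EV library stayed below the lowest *Hdac3* KO library (log2 fold change 0.78, SE 0.057, adjusted p = 1.17e-14). Its paralogues *Mrps18c* and *Mrps18a* rose by 0.43 and 0.28, and exons of Gm43511 on the same strand cover 23.2% of *Mrps18c*. Relative to *Mrps18a*, *Mrps18b* stood at a log2 ratio of -0.90 ± 0.12 (EV) and -0.40 ± 0.067 (*Hdac3* KO), the groups not overlapping. The ratio to *Mrps18c* overlapped between the groups. *Mrps22* had 457, 478, 475 and 478 in EV and 709, 709.9, 669 and 697 in *Hdac3* KO MCECs (log2 fold change 0.56, SE 0.050, adjusted p = 3.2e-12). *Mrps27*, a protein with the pentatricopeptide repeats of RNA-binding proteins, had 414, 388, 469 and 419.5 in EV and 554, 633, 605 and 585 in *Hdac3* KO MCECs (log2 fold change 0.49, SE 0.060, adjusted p = 3.21e-09). *Mrps30* had 420.1, 424, 413 and 418 in EV and 565, 567, 592 and 616 in *Hdac3* KO MCECs (log2 fold change 0.48, SE 0.054, adjusted p = 5.96e-10). None of these overlapped between the groups. *Mrps30* and *Mrps18a* are grouped here by symbol, and both are known from structures of the ribosome as proteins of the large subunit.

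*Mrps34*, *Mrps33* and *Mrps21* were the lower genes. *Mrps34* had 381, 379, 420.0 and 369.8 in EV and 349, 313, 339 and 259.7 in *Hdac3* KO MCECs (log2 fold change -0.30, SE 0.075, adjusted p = 0.000407), without overlap. Exons of other genes cover 63.4% of its exonic bases on the opposite strand and 37% on its own, so its count is uncertain, and its call was lost under the offsets for GC content and length. *Mrps33* had 671, 653, 638 and 682 in EV and 572, 535, 599 and 532 in *Hdac3* KO MCECs (log2 fold change -0.24, SE 0.051, adjusted p = 6.08e-05), without overlap. *Mrps21* had a log2 fold change of -0.19 (adjusted p = 0.000166) and its libraries overlapped. The strandedness of the counting is not given in the sources used here. Exons of other genes on either strand cover over 5% of the exonic bases of 22 members. On the opposite strand they cover 36% of *Mrpl19*, 33.4% of *Mrpl43* (*Twnk*), 30.5% of *Mrps18b* (Gm16279), 24.2% of *Mrps27* and 24.2% of *Mrpl47* (*Actl6a* and *Ndufb5*), and these reads could not be separated. The large subunit rose slightly more than the small one: the log2 ratio of their sums was 1.12 ± 0.0057 in EV and 1.16 ± 0.01 in *Hdac3* KO MCECs, the groups not overlapping.

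Of the import genes, all 3 listed receptors of the TOM complex and its channel were higher. *Tomm70a*, which takes up carrier precursors from chaperones, had normalised read counts of 3280.2, 3193, 3092 and 2983 in EV and 4566, 4904, 4965 and 4888 in *Hdac3* KO MCECs (log2 fold change 0.63, SE 0.031, adjusted p = 4.49e-19). *Tomm20*, the receptor for N-terminal targeting sequences, had 5095, 4926, 5123 and 5059 in EV and 7216, 6953, 7035 and 7170.4 in *Hdac3* KO MCECs (log2 fold change 0.49, SE 0.026, adjusted p = 2.16e-18). Both sets of libraries were far apart, and the ratio of *Tomm70a* to *Tomm20* overlapped between groups. *Tomm22*, the central receptor, had 2320.1, 2326, 2218 and 2434 in EV and 2837, 2839.6, 3049.7 and 3019.9 in *Hdac3* KO MCECs (log2 fold change 0.34, SE 0.033, adjusted p = 2.76e-11). The channel gene *Tomm40* had 1129, 1256, 1175 and 1189 in EV and 1506, 1501, 1548 and 1612 in *Hdac3* KO MCECs (log2 fold change 0.38, SE 0.038, adjusted p = 6.43e-11), and the small subunit gene *Tomm5* had 884, 851, 847 and 842 in EV and 1271, 1257, 1329 and 1238 in *Hdac3* KO MCECs (log2 fold change 0.57, SE 0.040, adjusted p = 3.51e-15). *Tomm7*, another small subunit, did not pass the cut-off: its libraries ran from 630 to 726 in EV and from 694 to 779 in *Hdac3* KO MCECs (log2 fold change 0.13, adjusted p = 0.018), and its estimate was -0.04 under the offsets for GC content and length. It passed without EV library 1 (0.16) or *Hdac3* KO library 4 (0.16).

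Within the presequence translocase of the inner membrane, the channel genes *Timm23* and *Timm17a* were higher. *Timm23* had 1652, 1676, 1660.1 and 1674 in EV and 2271, 2256, 2314 and 2302 in *Hdac3* KO MCECs (log2 fold change 0.46, SE 0.031, adjusted p = 2.27e-15). *Timm17a* had 1309, 1330.5, 1316 and 1327 in EV and 1829.7, 1776, 1844 and 1747 in *Hdac3* KO MCECs (log2 fold change 0.45, SE 0.034, adjusted p = 5.54e-14). Its paralogue *Timm17b*, the alternative partner of *Timm23*, went the other way, with 591, 627, 591 and 614 in EV and 485, 506, 479 and 475 in *Hdac3* KO MCECs (log2 fold change -0.32, SE 0.052, adjusted p = 1.11e-06). The 3 genes had separate groups. The log2 ratio of *Timm17a* to *Timm17b* counts does not depend on TMM factors or library totals. It was 1.15, 1.08, 1.15 and 1.11 in the EV libraries and 1.92, 1.81, 1.94 and 1.88 in the *Hdac3* KO libraries. The ratio was higher in all 4 *Hdac3* KO libraries, by 0.76 on average. The receptor gene *Timm50* rose by 0.41 (adjusted p = 5.31e-12) and *Timm44*, which tethers the import motor, by 0.33 (adjusted p = 2.09e-09), both without overlap. *Timm22*, the channel for carrier precursors, did not pass the cut-off (0.12, adjusted p = 0.0166) and its libraries overlapped; it passed without EV library 4 (0.15), without *Hdac3* KO library 1 (0.14) or 2 (0.15), and under the offsets for GC content and length (0.15, adjusted p = 0.00064).

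**Figure D3:**
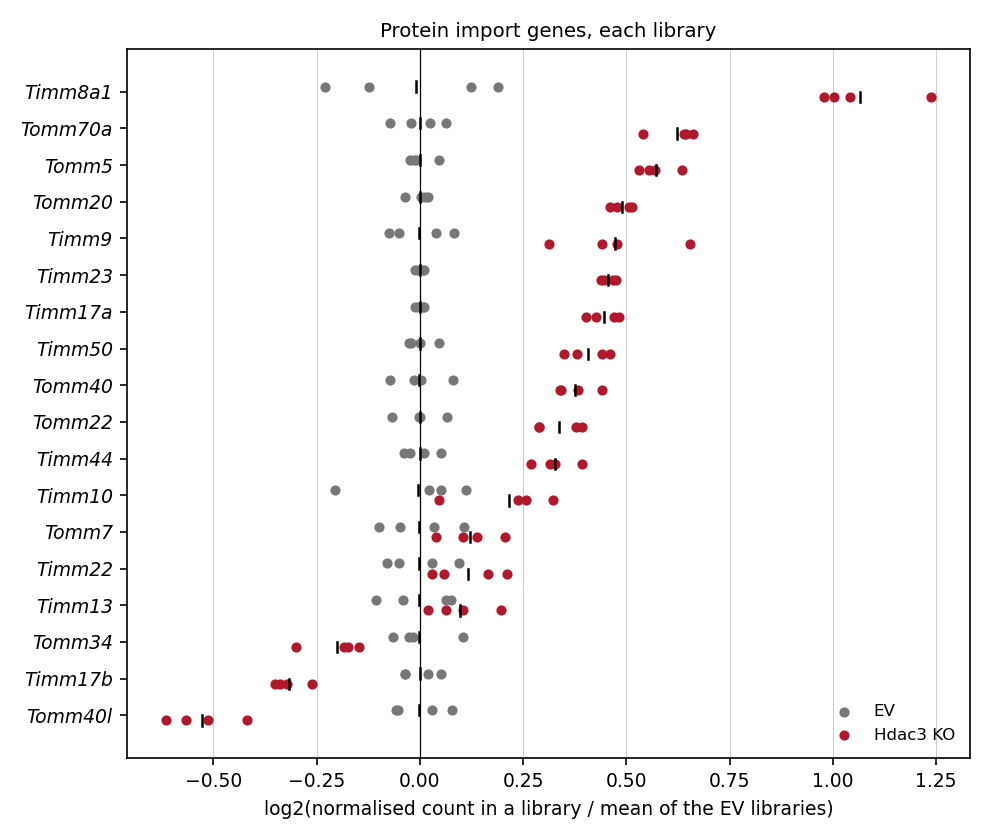
Log2 of the normalised read count in each library relative to the mean of the EV libraries, for the 18 import genes (EV grey, *Hdac3* KO red, n = 4; black ticks are group means). *Timm8a1* stands apart at the top, *Timm17b* and *Tomm40l* are lower while their paralogues are higher, and *Tomm7*, *Timm22* and *Timm13* overlap; the estimates of *Timm22* and *Timm13* turn negative under library totals, and that of *Tomm7* under offsets for GC content and length.

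The small Tim proteins are chaperones that carry membrane proteins across the intermembrane space, *Timm9* with *Timm10* and *Timm8a1* with *Timm13*. *Timm8a1* had the largest change of the import genes, with 204, 172, 159.8 and 214 in EV and 369, 376, 443 and 386 in *Hdac3* KO MCECs (log2 fold change 1.07, SE 0.083, adjusted p = 9.45e-14). The lowest *Hdac3* KO library was well above the highest EV library. Its partner *Timm13* had 1333, 1395, 1509.7 and 1498 in EV and 1542, 1498, 1642 and 1454 in *Hdac3* KO MCECs, overlapped and did not pass the cut-off (log2 fold change 0.09, SE 0.041, adjusted p = 0.0286); it passed without *Hdac3* KO library 4 (0.12) and under the offsets for GC content and length (0.26, adjusted p = 9.75e-10), and was -0.02 under library totals. The log2 ratio of *Timm8a1* to *Timm13* was -2.94 ± 0.24 in EV and -1.97 ± 0.079 in *Hdac3* KO MCECs, the groups not overlapping. *Timm9* rose by 0.48 (adjusted p = 1.23e-07) with separate groups. *Timm10* passed the cut-off (0.22, adjusted p = 0.00564) with overlapping libraries, and its call was lost under library totals, under the offsets for GC content and length, and without EV library 2 (0.16) or *Hdac3* KO library 1 (0.21), 3 (0.21) or 4 (0.18). The ratio of *Timm9* to *Timm10* overlapped between groups.

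The other lower import genes were *Tomm40l* and *Tomm34*. *Tomm40l*, a paralogue of the channel gene, had 247, 271, 262 and 247 in EV and 179.9, 192, 168 and 173 in *Hdac3* KO MCECs (log2 fold change -0.53, SE 0.081, adjusted p = 3.86e-07), without overlap. Exons of *Nr1i3* on the opposite strand cover 64.3% of its exonic bases, so its count is uncertain. Relative to *Tomm40l*, *Tomm40* stood at a log2 ratio of 2.21 ± 0.043 (EV) and 3.11 ± 0.12 (*Hdac3* KO), the groups not overlapping. *Tomm34*, a cytosolic co-chaperone, fell by 0.20 on the log2 scale (adjusted p = 0.000266), with separate groups.

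Carriers changed in both directions. The most abundant members were higher: *Slc25a4* and *Slc25a5*, which exchange ADP for ATP, and *Slc25a3*, which imports phosphate. *Slc25a4* had 10784, 10629, 10989 and 10944 in EV and 12735, 12268, 13066 and 12625 in *Hdac3* KO MCECs (log2 fold change 0.23, SE 0.025, adjusted p = 5.99e-10), and *Slc25a5* and *Slc25a3* rose by 0.23 and 0.25, all without overlap. Under library totals *Slc25a4*, *Slc25a5* and *Slc25a3* had log2 fold changes of 0.11, 0.11 and 0.14, and under the offsets for GC content and length 0.16, 0.09 and 0.21, all past the cut-off. Between *Slc25a4* and *Slc25a5*, the log2 ratio was 0.79 ± 0.023 in EV and 0.78 ± 0.025 in *Hdac3* KO MCECs and overlapped. One annotated pseudogene carries the name of *Slc25a5*, so reads could be shared. In FPKM, which is per length, *Slc25a4* (299.5) and *Slc25a5* (269.8) were the highest of the carriers in EV MCECs, followed by *Slc25a3* (106.7), against a family median of 10.3 and a median of 13 for all listed genes.

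The carriers of ATP-Mg and phosphate, which are regulated by calcium, did not move together. *Slc25a23* had 1689.9, 1640.3, 1695 and 1766 in EV and 1013, 971, 986 and 928 in *Hdac3* KO MCECs, the lowest log2 fold change of all members (-0.80, SE 0.038, adjusted p = 8.37e-20). *Slc25a24* had 1536, 1526, 1445 and 1498 in EV and 1293, 1195, 1294 and 1375 in *Hdac3* KO MCECs (log2 fold change -0.22, SE 0.039, adjusted p = 5.27e-06). *Slc25a25* went the other way, with 376, 389.8, 382 and 314 in EV and 559.7, 512, 559 and 501 in *Hdac3* KO MCECs (log2 fold change 0.55, SE 0.065, adjusted p = 2.02e-09). Each of the 3 genes had separate groups. The log2 ratio of *Slc25a25* to *Slc25a23* was -2.17, -2.07, -2.15 and -2.49 in the EV libraries and -0.86, -0.92, -0.82 and -0.89 in the *Hdac3* KO libraries. It was higher in all 4 *Hdac3* KO libraries, by 1.35 on average, and the ratio of *Slc25a25* to *Slc25a24* was higher by 0.77, also without overlap.

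**Figure D4:**
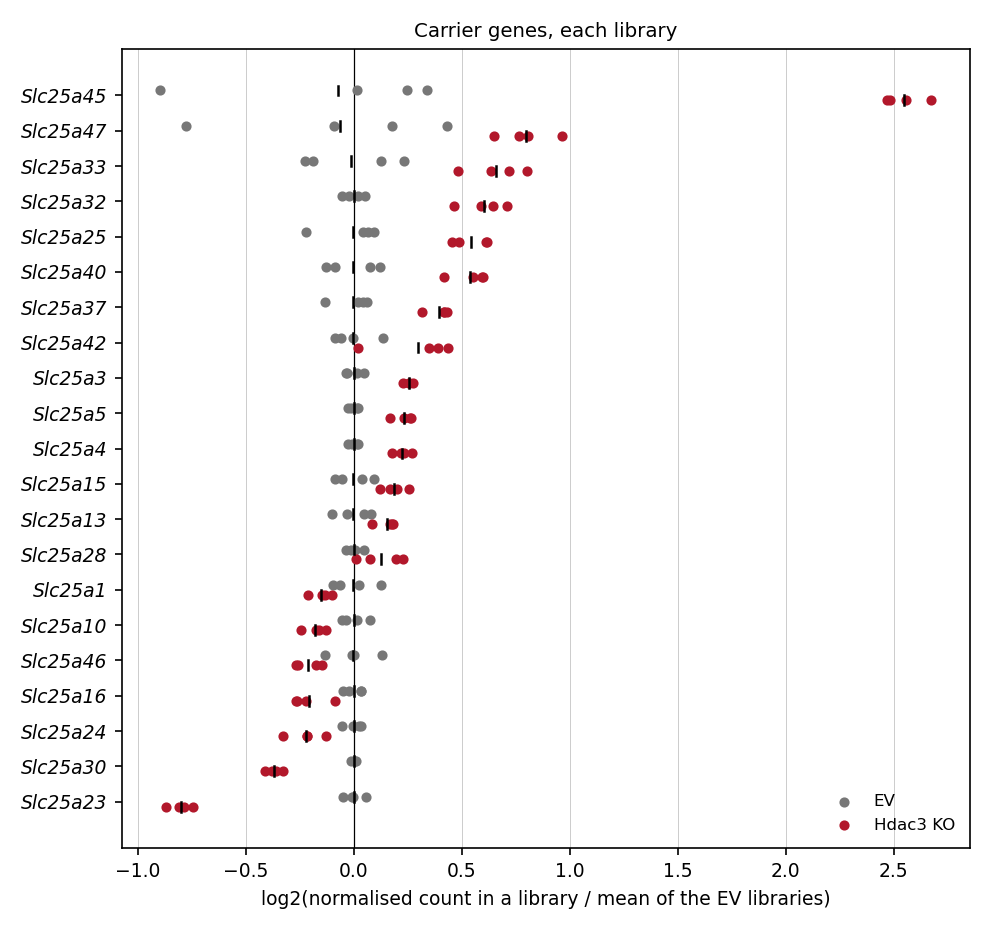
Log2 of the normalised read count in each library relative to the mean of the EV libraries, for the 21 carriers (EV grey, *Hdac3* KO red, n = 4; black ticks are group means). *Slc25a45* is far to the right, the abundant *Slc25a3*, *Slc25a4* and *Slc25a5* lie together near 0.25, and 7 carriers from *Slc25a1* to *Slc25a23* lie to the left of 0.

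*Slc25a45* had the highest log2 fold change of all members. Its normalised read counts were 39.2, 33.3, 41.8 and 17.7 in EV and 184, 210.4, 194 and 183 in *Hdac3* KO MCECs (log2 fold change 2.58, SE 0.148, adjusted p = 2.01e-17). The lowest *Hdac3* KO library, at 183, stood far above the highest EV library, at 41.8. Its level in EV MCECs was low, at 0.676 FPKM. The carriers of nucleotides and cofactors were higher in 4 of 5 listed genes, against 47.1% of all listed genes, and in 3 of 5 under library totals, against 32.3%. *Slc25a33*, a pyrimidine nucleotide carrier, had 155, 113, 116 and 145 in EV and 230.4, 218, 205 and 185 in *Hdac3* KO MCECs (log2 fold change 0.66, SE 0.102, adjusted p = 4.51e-07). *Slc25a32*, a carrier of folate and FAD, had 268, 261, 275 and 255 in EV and 365, 413, 398 and 433 in *Hdac3* KO MCECs (log2 fold change 0.61, SE 0.068, adjusted p = 6.2e-10). *Slc25a40*, a glutathione carrier, had 401, 346, 389 and 337 in EV and 491, 555, 539.5 and 558 in *Hdac3* KO MCECs (log2 fold change 0.55, SE 0.063, adjusted p = 1.02e-09). The groups were separate in these genes. *Slc25a42*, a coenzyme A carrier, passed the cut-off (0.32, adjusted p = 0.00547) with overlapping libraries. Its call was lost under library totals and without EV library 1, 3 or 4 or *Hdac3* KO library 2, 3 or 4 (0.28 to 0.40 over all libraries left out in turn). *Slc25a16* fell by 0.21 on the log2 scale (adjusted p = 0.000584) with separate ones.

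The iron carriers differed in their calls. *Slc25a37* rose by 0.40 (adjusted p = 1.54e-07) with separate groups, while *Slc25a28* had 0.13 (adjusted p = 0.0142) with overlapping ones. *Slc25a28* passed without *Hdac3* KO library 3 (0.17) or 4 (0.15), and with the size factors of DESeq2. Their log2 ratio, *Slc25a37* to *Slc25a28*, was -0.86 ± 0.12 in EV and -0.59 ± 0.093 in *Hdac3* KO MCECs, the groups not overlapping. Of the amino acid carriers, *Slc25a13*, which exchanges aspartate and glutamate, rose by 0.15 (adjusted p = 0.00806) and *Slc25a15*, an ornithine carrier, by 0.18 (adjusted p = 0.00158). Both calls were lost under library totals and under the offsets for GC content and length, and that of *Slc25a13* also without EV library 1 (0.14) or 3 (0.12) or *Hdac3* KO library 1 (0.15), 2 (0.15) or 4 (0.15). The citrate carrier *Slc25a1* fell by 0.15 on the log2 scale (adjusted p = 0.00155) and the dicarboxylate carrier *Slc25a10* by 0.18 (adjusted p = 7.37e-05). Both calls were lost under the same offsets, and that of *Slc25a1* also without EV library 4 (-0.10). *Slc25a30*, related to the uncoupling proteins, had 997, 993, 1001 and 984 in EV and 773, 764, 792 and 747 in *Hdac3* KO MCECs (log2 fold change -0.37, SE 0.041, adjusted p = 6.06e-10), with a narrow spread in each group. *Slc25a46*, an outer membrane protein of the family that acts in mitochondrial shape, fell by 0.20 on the log2 scale (adjusted p = 0.000238). *Slc25a47* passed the cut-off (0.83, adjusted p = 0.00216) at only 9.76 to 22.5 counts in EV and 26.3 to 32.6 in *Hdac3* KO MCECs, and did not pass without EV library 4 (0.62).

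**Figure D5:**
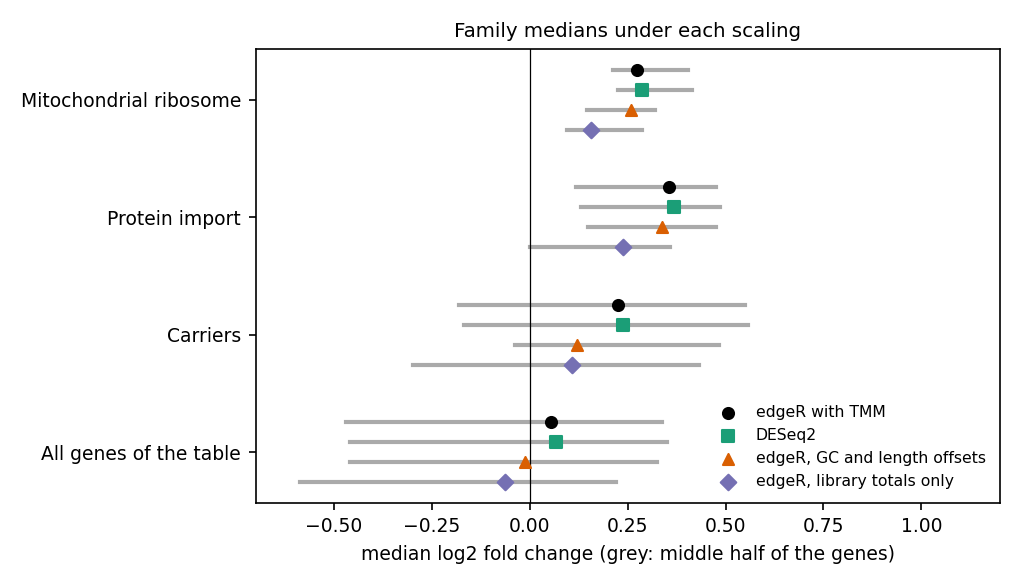
Median log2 fold change of each family and of all listed genes (horizontal axis) under 4 ways of scaling or testing, with grey bars over the middle 50% of genes. The 3 family medians stay above 0 in each, from 0.11 for carriers to 0.37 for import, while the median of all listed genes runs from -0.06 to 0.07.

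Other genes of the same pathways were described from lists chosen by function, to be read against the 47.1% of all listed genes called higher and the 49.6% called lower. For the counts under library totals these shares are 32.3% and 49.8%, and for those under the offsets for GC content and length 42.5% and 45.1%. All 13 listed genes for further ribosome proteins and ribosome assembly were called higher, with a median log2 fold change of 0.23. Under library totals 6 of them were called, the median was 0.11 and *Aurkaip1* turned to -0.01; under the offsets for GC content and length 11 were called, with a median of 0.24. *Ptcd3*, a protein of the small subunit, had the highest (0.67, adjusted p = 2.38e-17), followed by *Noa1*, an assembly GTPase (0.46), and *Aurkaip1* had the lowest (0.10, adjusted p = 0.0095). Of 11 listed translation factors and related genes, 8 were higher and 2 lower, with a median of 0.37 (6 and 2, and 0.26, under library totals; 7 and 2, and 0.30, under the offsets). The elongation factor genes *Tufm* and *Tsfm* rose by 0.39 and 0.38, *Tmem70*, an assembly factor of ATP synthase, by 0.52, and *Mtrf1* by 0.95 from a mean of 8.2 counts. *Cox14*, a factor for cytochrome oxidase, fell by 0.35 on the log2 scale and the recycling factor gene *Mrrf* by 0.21. Of 18 listed genes for import, processing and folding outside the members, 14 were higher and 2 lower, with a median of 0.38 (11 and 2, and 0.26, under library totals; 14 and 2, and 0.33, under the offsets). *Hspd1*, the matrix chaperonin, had 14278 ± 276 normalised counts in EV and 28262 ± 774 in *Hdac3* KO MCECs (0.99, adjusted p = 2.27e-27). *Hspa9*, the chaperone of the import motor that *Timm44* tethers, had 15733 ± 131 and 30452 ± 295 (0.95, adjusted p = 6e-28). Both changes were larger than that of any member except *Slc25a45* and *Timm8a1*. *Hscb* and *Dnlz* fell by 0.53 and 0.26 on the log2 scale.

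Of 17 listed transporters outside the *Slc25a* symbols, 6 were higher and 10 lower (median log2 fold change -0.19), with 3 and 10 under library totals (-0.30) and 5 and 9 under the offsets for GC content and length (-0.12). The outer membrane pores *Vdac3*, *Vdac2* and *Vdac1* rose by 0.30, 0.23 and 0.17 (0.18, 0.12 and 0.05 under library totals), and *Letm1* rose by 0.30. *Mtch1*, an outer membrane protein related to the carriers, fell by 0.88 on the log2 scale (adjusted p = 7.2e-25) and *Sfxn5* by 0.85. Of 18 listed regulators of mitochondrial biogenesis, 13 were higher and 3 lower, with a median of 0.26; under library totals 8 and 3 were, with a median of 0.14, and under the offsets for GC content and length 10 and 3, with 0.16. *Myc* rose by 0.98 (adjusted p = 7.9e-21) and *Pprc1* by 0.44 (adjusted p = 3.45e-15). *Nrf1*, *Yy1* and *Gabpa*, which encode factors whose letters were searched in the promoters, rose by 0.33, 0.23 and 0.18, and had 0.22, 0.12 and 0.07 under library totals. Of the other GABP genes listed, *Gabpb1* rose by 0.40 and *Gabpb2* fell by 0.18 on the log2 scale (0.28 and -0.30 under library totals). *Ppargc1a* fell by 1.96 on the log2 scale from a mean of 36.6 counts, and *Ppargc1b* by 0.38. The 12 listed genes of the mitochondrial genome, taken by symbol whatever their gene type, were called lower in *Hdac3* KO MCECs. The median log2 fold change of these 12 genes was -0.59. In the mitochondrial ribosome 47 of 53 genes were higher, and a relation between the 2 sets was not tested. Reads from nuclear copies could be counted with the genes of the mitochondrial genome.

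The members were spread over 20 chromosomes, with at most 9 on a single one, chromosome 11. Head-to-head neighbours, coding genes that start within 1000 bases on the opposite strand or overlap by up to 200 bases, were annotated for 22 members. In 12 pairs the neighbour was also in the table, where all 12 members were called higher; 10 of these neighbours were called higher and 2 lower, against 47.1% and 49.6% of all listed genes. The neighbours that rose most were *Dbf4* (0.65, beside *Slc25a40* at 0.55), *Helq* (0.54, beside *Mrps18c* at 0.43) and *Ppp1r10* (0.36, beside *Mrps18b* at 0.78). Those that rose least were *Fau* (0.09, beside *Mrpl49*) and *Ncapd2* (0.12, beside *Mrpl51*). The neighbour calls used TMM and were not counted under library totals, which moved the median of all listed genes by -0.12. In 2 pairs the neighbour fell while the member rose: *Mrpl44* (0.31) with *Wdfy1* (-0.57) and *Timm9* (0.48) with 2700049A03Rik (-0.19). Exons of *Wdfy1* cover 7.66% of *Mrpl44* on the opposite strand.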

How the data were processed

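Bulk RNA-Seq libraries of 4 EV and 4 *Hdac3* KO MCEC samples were grouped by their titles. The authors deposited raw read counts per gene, FPKM values, which divide each count by gene length and library total, and their own fold changes and adjusted p-values. The submitters' processing notes name CASAVA, DESeq 1.6.3 and mm10, and the paper's methods name tophat2 and bowtie2 for alignment. The methods also name the lumi package for extracting the count matrix, and cufflinks and DESeq2 for differential expression. The program that assigned reads to genes is not otherwise given in the sources used here. The authors' fold changes and p-values hold their findings and were not used, except to check that no listed adjusted p-value exceeds 0.05. No sample column was left unused.

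Library totals were recovered from count, length and FPKM. The table held 84.3% to 85.9% of them. Counts were tested with edgeR 4.0.16 in R 4.3.3 (quasi-likelihood test, TMM factors on the recovered totals, Benjamini-Hochberg adjustment over all 8278 genes, adjusted p cut-off 0.01), with no filter on low counts. Tested on simulated data for this comparison (8278 genes), edgeR recovered all 100 genes changed by 1 on the log2 scale and 91 of 100 changed by 0.3, with 3 false calls. Only these genes changed in the simulation, up or down at random, from means of at least 100 counts and with the same dispersion for every gene. In the real data most listed genes were called. The simulation therefore checks the code and does not measure the accuracy of TMM or of the calls here. Normalised read counts are the counts scaled to a common effective library size. FPKM was used only to compare levels between genes. Reads carry no molecular identifiers, so depth covers counting error only. "Overlap" means that the ranges of the 4 EV and 4 *Hdac3* KO libraries meet. Exon overlaps, GC content and neighbours come from GENCODE M21, and promoter windows from RefSeq GRCm38.p6.

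Named genes are the 4 highest and 4 lowest log2 fold changes per family among members past the cut-off without overlap and with a mean of at least 100 counts in the higher group, members with a change of at least 1, and fixed lists of core import genes, carriers and pathways (the 2 highest and 2 lowest of each). Other members named by their overlap, calls, neighbours or motifs were chosen after their values were seen. The members and lists were chosen with earlier results of these data known. Alternatives were DESeq2 1.42.0, its size factors, library totals without TMM, TMM on the table's column sums, a replicate block, a filter of 10 counts in 4 libraries, a cut-off of 0.05, adjustment over 30000 genes, protein-coding genes only, offsets for GC content and length, and leaving out each library. Python 3.11.15 with matplotlib 3.10.9 made the figures.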

Additional observations from a re-analysis of the deposited data

Results flagged for a closer look

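In 4 of the 98 groups of 4 libraries tested for the named genes and *Hdac3*, 1 library stood apart by Dixon's criterion, and chance alone flags about 1 in 20 groups, or 4.9 here. *Mrps18b* had 454 normalised counts in EV library 2 against 389 to 399 in the other EV libraries, and its log2 fold change was 0.83 without that library. *Mrps22* had 457 in EV library 1 against 475 to 478, and 0.54 without it. *Slc25a13* had 558 in *Hdac3* KO library 3 against 593 to 597, and 0.18 without it. *Slc25a37* had 492 in *Hdac3* KO library 4 against 527 to 532, and 0.43 without it. The 4 values came from 4 different libraries.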

How the results depend on the processing

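The 72 members called higher and the 16 called lower kept their sign under every alternative. A change of cut-off or adjustment leaves the estimates as they were, and the shift under library totals was too small to turn any of these signs. Under library totals without TMM, 53 of the 72 and all 16 stayed past the cut-off, and the median log2 fold changes were 0.16 for the ribosome (0.1568), 0.24 for import (0.2391), 0.11 for carriers (0.1082) and -0.06 for all listed genes (-0.0618). Under offsets for GC content and length, 63 and 13 stayed, and the median was 0.12 for carriers (0.1201; 0.1202 with the replicate block) and -0.01 for all listed genes (-0.0117; -0.0114 with the block). The median of all listed genes was 0.0674 with DESeq2, 0.0675 with its size factors, 0.0631 over protein-coding genes and 0.0507 to 0.0604 with a library left out. Without TMM, *Timm13* was -0.0230 and *Timm22* -0.0008, and *Tomm7* was -0.0402 with the offsets and -0.0420 with the offsets and the block; these 4 estimates did not pass the cut-off. *Timm13* and *Timm22* passed it as higher under the offsets (0.26 and 0.15). The cause was not tested.

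With each library left out in turn, 46 to 47 ribosome, 11 to 13 import and 11 to 13 carrier genes were called higher, and 5 to 6, 3 and 6 to 7 lower. Over all 8278 listed genes, 3634 to 3806 were then called higher and 3955 to 4024 lower. Same-numbered libraries did not deviate together (correlations -0.093, 0.0998, -0.0108 and -0.0489), so the numbers do not pair the samples. With the replicate number as a block, 47, 12 and 13 genes of the families were called higher and 6, 3 and 7 lower. Over all listed genes, the counts with the block were 3866 higher and 4106 lower.

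Selection of the table on these libraries limits every count, and genes outside it were not analysed here. With TMM and all libraries, no member with a log2 fold change under 0.14 in size passed the cut-off, and *Slc25a47* and *Slc25a45* rest on low counts in EV MCECs.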
